A study of Homo sapiens with 24 samples.

Results

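The genes described here are 9 members of the interleukin 6 (IL6) family and its response: the cytokines *IL6*, *LIF*, *IL11* and *CLCF1*, the receptor chains *IL6ST*, *IL6R*, *OSMR* and *LIFR*, and the inhibitor *SOCS3*. They were chosen by symbol and not by their values, although earlier results of these data were known. They were found as 9 of the 25702 gene identifiers in each count file. All 9 passed the filter on low counts, which left 13356 genes. Expression was measured by mRNA-seq in 24 samples, 6 biological replicates in each of 4 groups, of IMR90 cells, a line of human lung fibroblasts.

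All 4 groups, the growing cells included, carried retrovirally delivered ER:HRAS(G12V), an oncogenic RAS fused to the oestrogen receptor that stays inactive until 4-hydroxytamoxifen (4OHT) is given. The groups were growing cells with the empty MSCV vector (growing), growing cells with MSCV miR30 shHMGA1, a retroviral hairpin against *HMGA1* (shHMGA1), cells with the empty vector kept in 4OHT for 6 days to bring about RAS-induced senescence (RIS), and cells with the hairpin kept in 4OHT for as long (RIS+shHMGA1). Passages ran from 23 to 28 in all groups. The hairpin was a single one, so that an effect of the hairpin on other targets and an effect of losing *HMGA1*, which codes for an architectural chromatin protein, cannot be told apart. In bulk samples, fewer cells that express a gene and less RNA per cell cannot be told apart either.

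Cytokines of this family act through receptors that share the signalling chain gp130, the product of *IL6ST*. IL6 binds the IL6 receptor (*IL6R*) and IL11 the IL11 receptor (*IL11RA*), LIF binds the LIF receptor (*LIFR*), and CLCF1 acts through the CNTF receptor (*CNTFR*) with gp130 and LIFR. The oncostatin M receptor (*OSMR*) pairs with gp130. The receptors activate JAK kinases, which phosphorylate the transcription factor STAT3, and *SOCS3*, itself a STAT3 target, codes for a protein that shuts off gp130 and JAK signalling. IL6 is among the best known secreted factors of senescent fibroblasts, as part of the senescence-associated secretory phenotype.

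Promoter sequences are shown for *IL6* and *IL11*, the cytokine genes that were higher under 4OHT in hairpin cells and had a reference window. The RefSeq windows (GRCh38.p14) run from 250 bases before to 50 bases after a transcription start, and 7 of the 9 members had at least 1 of them. There was no entry for *LIF* or *CLCF1*. The 250 bases before the start are printed, at chr7:22726950-22727199 on the plus strand for *IL6* and at chr19:55370464-55370713 on the minus strand for *IL11*, with matches to 5 searched motifs in capitals.
IL6: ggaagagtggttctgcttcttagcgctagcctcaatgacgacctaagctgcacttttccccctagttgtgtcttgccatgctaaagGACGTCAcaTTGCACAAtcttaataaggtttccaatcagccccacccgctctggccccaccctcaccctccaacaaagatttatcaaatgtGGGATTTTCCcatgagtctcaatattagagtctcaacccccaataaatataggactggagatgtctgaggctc
IL11: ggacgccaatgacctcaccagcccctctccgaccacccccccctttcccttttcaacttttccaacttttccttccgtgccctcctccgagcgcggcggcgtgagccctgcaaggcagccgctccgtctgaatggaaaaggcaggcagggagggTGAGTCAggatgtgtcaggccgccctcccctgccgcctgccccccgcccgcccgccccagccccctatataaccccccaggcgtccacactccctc

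The motifs were searched on both strands as AP-1 (TGANTCA), STAT (TTCNNNGAA), C/EBP (TTGCNNAA), the cyclic AMP response element CRE (GACGTCA) and, by its name alone, the degenerate site of NF-κB. With the base before the start counted as −1, the *IL6* window held a CRE match from −164 to −158, a C/EBP match from −155 to −148 and an NF-κB match from −73 to −64, none of which overlap. The *IL11* window held an AP-1 match from −96 to −90. Elsewhere, AP-1 matches lay after the start of *IL6R* and *OSMR*, C/EBP matches in windows of *OSMR* and *LIFR*, and STAT matches in 2 windows of *LIFR*, while no window of *IL6ST* or *SOCS3* held any of the 5. Of the 35116 promoter windows in the table, 7.71% held the AP-1 letters, 7.66% those of STAT, 10.5% those of C/EBP, 3.45% those of CRE and 5.91% the NF-κB site. The G and C content was 49.3% in the *IL6* window and 68.7% in the *IL11* window, against a median of 58.7% over all windows. These matches describe the letters and no binding was measured here.

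*HMGA1* was low in every sample with the hairpin, between 54.4 and 262 CPM (read counts scaled to the normalised library size), against 639 to 861 CPM in the samples with empty vector. In both hairpin groups it was lowest in replicates 5 and 6, at 58.1 and 54.4 CPM in shHMGA1 and 60.0 and 75.1 CPM in RIS+shHMGA1 samples. The other replicates had 98.7 to 143 CPM in shHMGA1 and 197 to 262 CPM in RIS+shHMGA1 samples. Total counts ran from 8698070 to 23103424 a sample. Growing replicate 4 and RIS replicate 2 stood apart from their groups. The first principal component (73.9% of the variance) placed growing replicate 4 at 77.3, with the rest of its group between −84.3 and −57.2, and RIS replicate 2 at −77.1, with the rest of its group between 16.8 and 62.1. *HMGA1*, at 667 and 713 CPM, was as in other samples with empty vector. Each thus lay on the side of the other treatment. Whether their labels were exchanged was not tested, and every comparison that uses the growing or RIS group in all 24 samples depends on it. They were kept in their labelled groups. For comparisons that use them, the counts of genes past the thresholds by edgeR are also given without both, as are many of the fold changes. All 8 fibroblast markers were detected in the series. Their summed level had a median of 26960 CPM in growing, 18000 in shHMGA1, 7313 in RIS and 4795 CPM in RIS+shHMGA1 samples. These medians moved with the treatment, but growing samples ran from 5096 to 40180 CPM and RIS samples from 5606 to 26740 CPM. The sum weighs abundant genes most. Over all samples *COL1A1* ran from 428 to 23310 CPM and *COL1A2* from 300 to 9461 CPM, but *VIM* from 3174 to 5703 CPM and *THY1* from 107 to 397 CPM. The part of the fibroblast markers in the results below was not tested. The epithelial (4 genes), endothelial (4) and haematopoietic (5) markers summed to at most 1.35, 2.65 and 3.43 CPM in any sample.

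Under 4OHT, *IL6*, *LIF*, *IL11*, *IL6R* and *SOCS3* were expressed at higher levels, whereas *CLCF1* and the shared chain *IL6ST* were not separable from no change. In cells with the hairpin this was seen in all 24 samples as labelled: RIS+shHMGA1 samples lay above shHMGA1 samples by 5.90-fold for *LIF*, 4.35-fold for *IL6*, 3.19-fold for *SOCS3*, 2.5-fold for *IL11* and 1.91-fold for *IL6R*. In cells with empty vector the same 5 genes and *OSMR* did not pass the thresholds in all samples as labelled, and passed when growing replicate 4 and RIS replicate 2 were left out. A gene was counted as changed at an adjusted p (Benjamini-Hochberg over all genes tested, edgeR's quasi-likelihood test) under 0.01 if its log2 fold change was also beyond ±0.58.

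Of the 9 genes, 5 were higher and 0 lower in RIS+shHMGA1 than in shHMGA1 samples, a comparison in which 39.1% of all genes tested passed the thresholds (19.6% higher and 19.5% lower). The median log2 fold change was 0.93 over the 9 genes and −0.02 over all genes tested. In the same 5 genes the samples of both groups did not overlap in CPM, as was the case in either direction for 43.4% of all genes tested. Neither growing replicate 4 nor RIS replicate 2 enters this contrast, although they widen the error that all groups share. Without both, 6 of the 9 genes passed (*LIFR* lower, beside the 5), where 44.4% of all genes did. With all samples as labelled, 0 of the 9 genes and 0.0% of all genes passed in RIS against growing. By edgeR, 4 of the 9 genes and 4407 of all genes were at an unadjusted p under 0.05. DESeq2 called 3 of the 9 (*LIF*, *IL6R* and *OSMR*), where it called 5.72% of all genes. No gene of the 9 had RIS and growing samples that did not overlap, as had 0.367% of all genes tested. Without growing replicate 4 and RIS replicate 2, 6 of the 9 genes were higher and 0 lower, where 39.7% of all genes passed (19.2% higher and 20.5% lower), and the same 6 did not overlap, as was the case for 35.2% of all genes. Without growing replicate 4 alone 6 genes passed, where 25.4% of all genes did, and without RIS replicate 2 alone 4 passed, where 19.2% did.

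**Figure D1:**
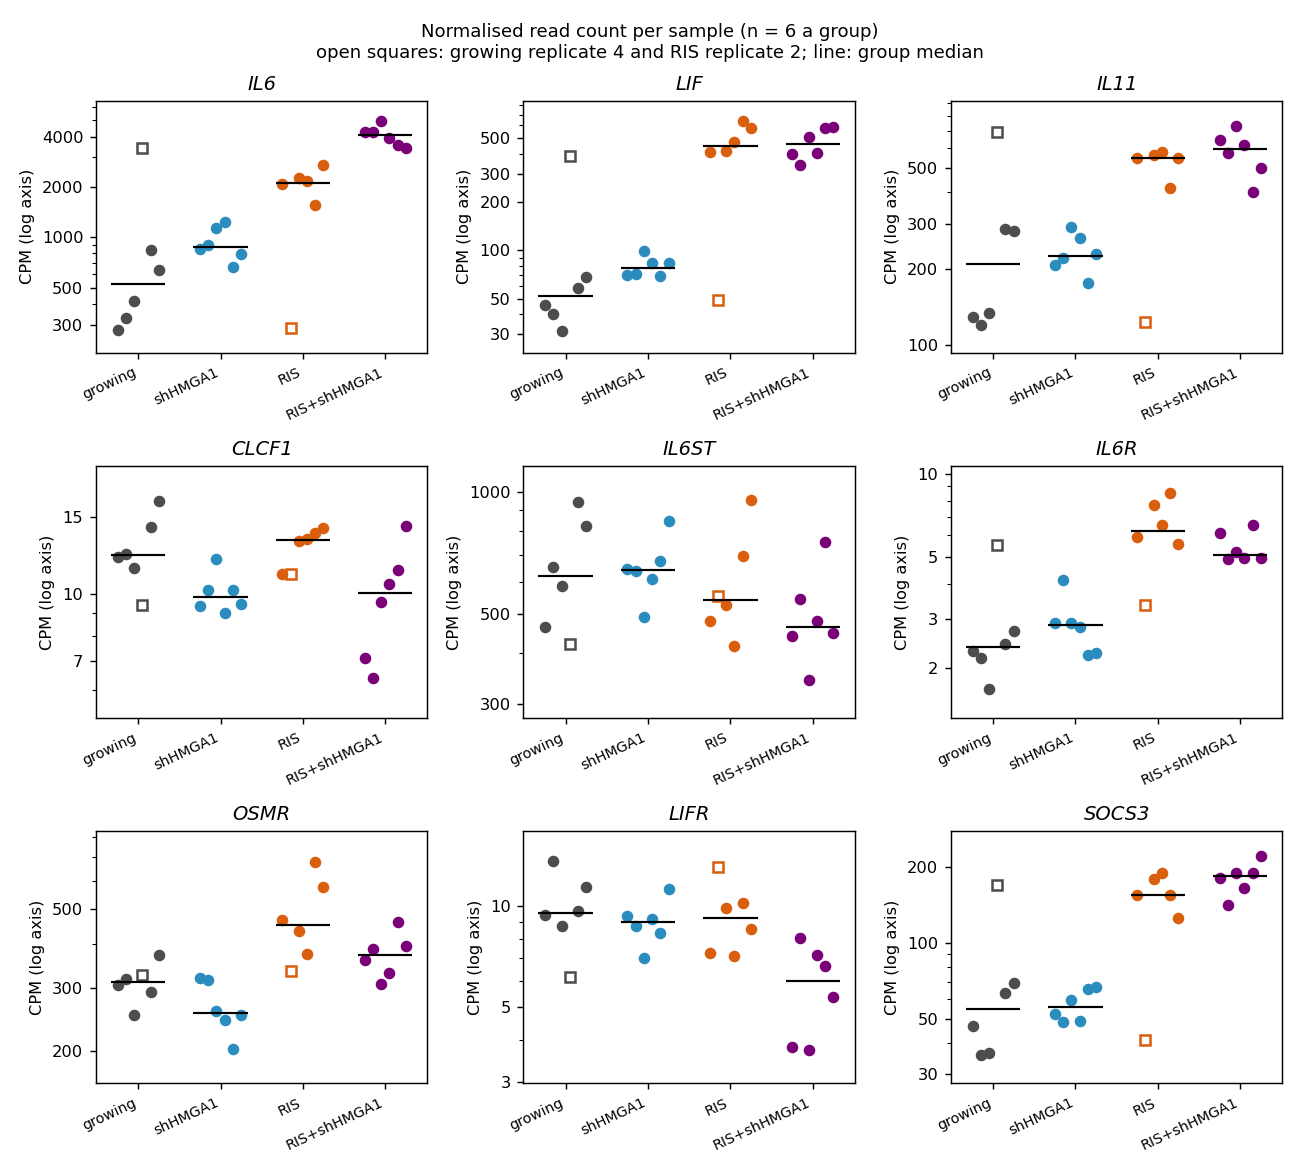
Normalised read count (CPM, log axis) of each of the 9 genes in each of the 24 samples, 6 a group, with the group median as a line and growing replicate 4 and RIS replicate 2 as open squares. *IL6*, *LIF*, *IL11*, *IL6R* and *SOCS3* lay higher in every RIS+shHMGA1 sample than in every shHMGA1 sample, and for *IL6* the RIS+shHMGA1 samples (3413 to 4928 CPM) lay above all other samples.

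*IL6* (chromosome 7, 22765503 to 22771621, plus strand, in the GRCh37 annotation, the build of the count files) codes for the founding cytokine of the family. Its lowest, median and highest levels were 277, 525 and 3396 CPM in growing, 665, 879 and 1233 CPM in shHMGA1, 288, 2122 and 2718 CPM in RIS, and 3413, 4072 and 4928 CPM in RIS+shHMGA1 samples. The 3396 CPM belonged to growing replicate 4 and the 288 CPM to RIS replicate 2. The other growing samples reached at most 840 CPM, and the other RIS samples started at 1564 CPM. Between RIS+shHMGA1 and shHMGA1 the log2 fold change was 2.12 (standard error 0.51, adjusted p = 0.0016 by edgeR), a 4.35-fold difference with a 95% interval of 2.09 to 9.07. Between RIS and growing it was 0.91 (standard error 0.49, adjusted p = 0.20 by edgeR) in all samples and 2.11 (standard error 0.24, adjusted p = 6.5e-08 by edgeR) without the samples that stood apart. *IL6* had 3171 to 56734 reads a sample, so that the spread between replicates sets its error.

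*IL6-AS1*, a non-coding gene antisense to *IL6*, shares exonic sequence with it in the annotation and had between 11.2 and 14.0% of the *IL6* count in every sample. The libraries were made with a kit that keeps the strand, but the strand setting used for counting is not given in the sources used here, so reads of the *IL6* and *IL6-AS1* genes could have been exchanged. In the same way *IL6* also shares exonic sequence with the antisense gene *STEAP1B*, *LIFR* with *LIFR-AS1*, and *OSMR* with *RICTOR*.

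*LIF* (chromosome 22, 30636442 to 30642748, minus strand), the leukaemia inhibitory factor, had the largest fold change of the 9 genes in both 4OHT comparisons. It had 31.5, 52.0 and 386 CPM (lowest, median and highest) in growing, 69.0, 77.4 and 99.3 CPM in shHMGA1, 49.3, 445 and 639 CPM in RIS, and 338, 457 and 582 CPM in RIS+shHMGA1 samples. Again growing replicate 4 was the highest of its group and RIS replicate 2 the lowest. All other growing samples lay at or under 67.9 CPM and all other RIS samples at or over 411 CPM. RIS+shHMGA1 exceeded shHMGA1 by a log2 fold change of 2.56 (standard error 0.54, adjusted p = 0.00067 by edgeR). Between RIS and growing it was 2.03 (standard error 0.53, adjusted p = 0.020 by edgeR) in all samples and 3.37 (standard error 0.20, adjusted p = 1.0e-12 by edgeR) without both samples, the latter a 10.3-fold difference with a 95% interval of 7.69 to 13.9.

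*IL11* (chromosome 19, 55875750 to 55881831, minus strand) codes for a cytokine that signals through gp130 as IL6 does. Levels were 120, 208 and 693 CPM in growing, 175, 224 and 292 CPM in shHMGA1, 123, 548 and 578 CPM in RIS, and 403, 594 and 729 CPM in RIS+shHMGA1 samples. Growing replicates 5 and 6 (288 and 283 CPM) were within the range of shHMGA1 samples, and growing replicates 1 to 3 (120 to 134 CPM) below it. RIS+shHMGA1 against shHMGA1 gave a log2 fold change of 1.32 (standard error 0.37, adjusted p = 0.0043 by edgeR). This call was lost without shHMGA1 replicate 1, shHMGA1 replicate 5 or RIS+shHMGA1 replicate 3 (log2 fold changes of 1.29, 1.26 and 1.25, adjusted p = 0.010 to 0.011 by edgeR). Between RIS and growing it was 0.75 (standard error 0.37, adjusted p = 0.15 by edgeR) in all samples and 1.48 (standard error 0.22, adjusted p = 4.3e-06 by edgeR) without both samples.

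*CLCF1* (chromosome 11, 67131639 to 67141648, minus strand), the cardiotrophin-like cytokine, was the ligand that did not follow the other 3. It had 9.39, 12.2 and 16.3 CPM in growing, 9.0, 9.82 and 12.0 CPM in shHMGA1, 11.1, 13.3 and 14.2 CPM in RIS, and 6.39, 10.04 and 14.3 CPM in RIS+shHMGA1 samples, so that all groups overlapped. The ratio of RIS+shHMGA1 to shHMGA1 was 0.98 (95% interval 0.78 to 1.24, adjusted p = 0.90 by edgeR), and that of RIS to growing was 1.01 (95% interval 0.80 to 1.27) in all samples and 0.99 (95% interval 0.79 to 1.25) without both.

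Among the receptor chains, *IL6R* (chromosome 1, 154377669 to 154441926, plus strand), which gives the cell its own IL6-binding chain, was low in all groups but higher under 4OHT. It had 1.68, 2.37 and 5.53 CPM in growing, 2.21, 2.84 and 4.13 CPM in shHMGA1, 3.36, 6.23 and 8.55 CPM in RIS, and 4.92, 5.09 and 6.52 CPM in RIS+shHMGA1 samples. These levels rest on 22 to 101 reads a sample. The 5.53 CPM was growing replicate 4, and the other growing samples did not exceed 2.70 CPM. RIS+shHMGA1 lay above shHMGA1 by a log2 fold change of 0.93 (standard error 0.24, adjusted p = 0.0027 by edgeR). Between RIS and growing it was 1.2 (standard error 0.24, adjusted p = 0.014 by edgeR) in all samples and 1.61 (standard error 0.17, adjusted p = 3.2e-08 by edgeR) without both.

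*OSMR* (chromosome 5, 38845960 to 38945698, plus strand) was less affected by the samples that stood apart. Levels were 252, 313 and 371 CPM in growing, 203, 256 and 321 CPM in shHMGA1, 336, 451 and 678 CPM in RIS, and 308, 372 and 459 CPM in RIS+shHMGA1 samples. The groups touched at their edges, with 336 CPM in RIS replicate 2 under the 371 CPM of growing replicate 6. RIS exceeded growing by a log2 fold change of 0.62 (standard error 0.16, adjusted p = 0.019 by edgeR) in all samples and 0.72 (standard error 0.15, adjusted p = 0.00034 by edgeR) without both. RIS+shHMGA1 against shHMGA1 missed both thresholds at 0.49 (standard error 0.16, adjusted p = 0.010 by edgeR).

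*LIFR* (chromosome 5, 38474770 to 38608456, minus strand) had its lowest levels in RIS+shHMGA1 samples. It had 6.17, 9.53 and 13.6 CPM in growing, 7.02, 8.97 and 11.3 CPM in shHMGA1, 7.09, 9.22 and 13.1 CPM in RIS, and 3.74, 5.99 and 8.07 CPM in RIS+shHMGA1 samples. RIS+shHMGA1 samples overlapped with each other group at the edge. The log2 fold change was −0.64 against shHMGA1 (standard error 0.20, adjusted p = 0.011 by edgeR), just outside the threshold for p, and −0.77 against growing (standard error 0.20, adjusted p = 0.0026 by edgeR). Without the samples that stood apart, the first of these passed (−0.64, standard error 0.18, adjusted p = 0.0026 by edgeR). RIS against growing gave −0.07 (standard error 0.20) in all samples and −0.28 (standard error 0.18, adjusted p = 0.18 by edgeR) without both. *OSMR*, at an adjusted p of 0.0103, and *LIFR*, at 0.0107, were thus the genes just outside the threshold in the hairpin cells, and *IL11*, at 0.0043, was the one nearest to it inside.

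*IL6ST* (chromosome 5, 55230923 to 55290850, minus strand), the gp130 chain that all of these ligands share, was abundant in all groups and did not pass in any comparison. Levels were 422, 619 and 941 CPM in growing, 491, 642 and 846 CPM in shHMGA1, 418, 541 and 955 CPM in RIS, and 344, 465 and 750 CPM in RIS+shHMGA1 samples. All groups overlapped. The ratio was 0.77 for RIS+shHMGA1 against shHMGA1 (95% interval 0.56 to 1.06, adjusted p = 0.13 by edgeR), and 0.93 for RIS against growing (95% interval 0.68 to 1.28), or 0.89 (95% interval 0.64 to 1.22) without both samples.

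*SOCS3* (chromosome 17, 76352859 to 76356158, minus strand), the feedback inhibitor of gp130 signalling, had 35.7, 54.8 and 169 CPM in growing, 48.2, 55.5 and 66.8 CPM in shHMGA1, 41.2, 155 and 189 CPM in RIS, and 142, 185 and 220 CPM in RIS+shHMGA1 samples. Growing replicate 4 (169 CPM) was in the range of the RIS samples, and RIS replicate 2 (41.2 CPM) in that of the growing samples. Against shHMGA1, RIS+shHMGA1 had a log2 fold change of 1.67 (standard error 0.33, adjusted p = 0.00043 by edgeR). Between RIS and growing it was 1.01 (standard error 0.32, adjusted p = 0.041 by edgeR) in all samples and 1.68 (standard error 0.17, adjusted p = 8.5e-09 by edgeR) without both.

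**Figure D2:**
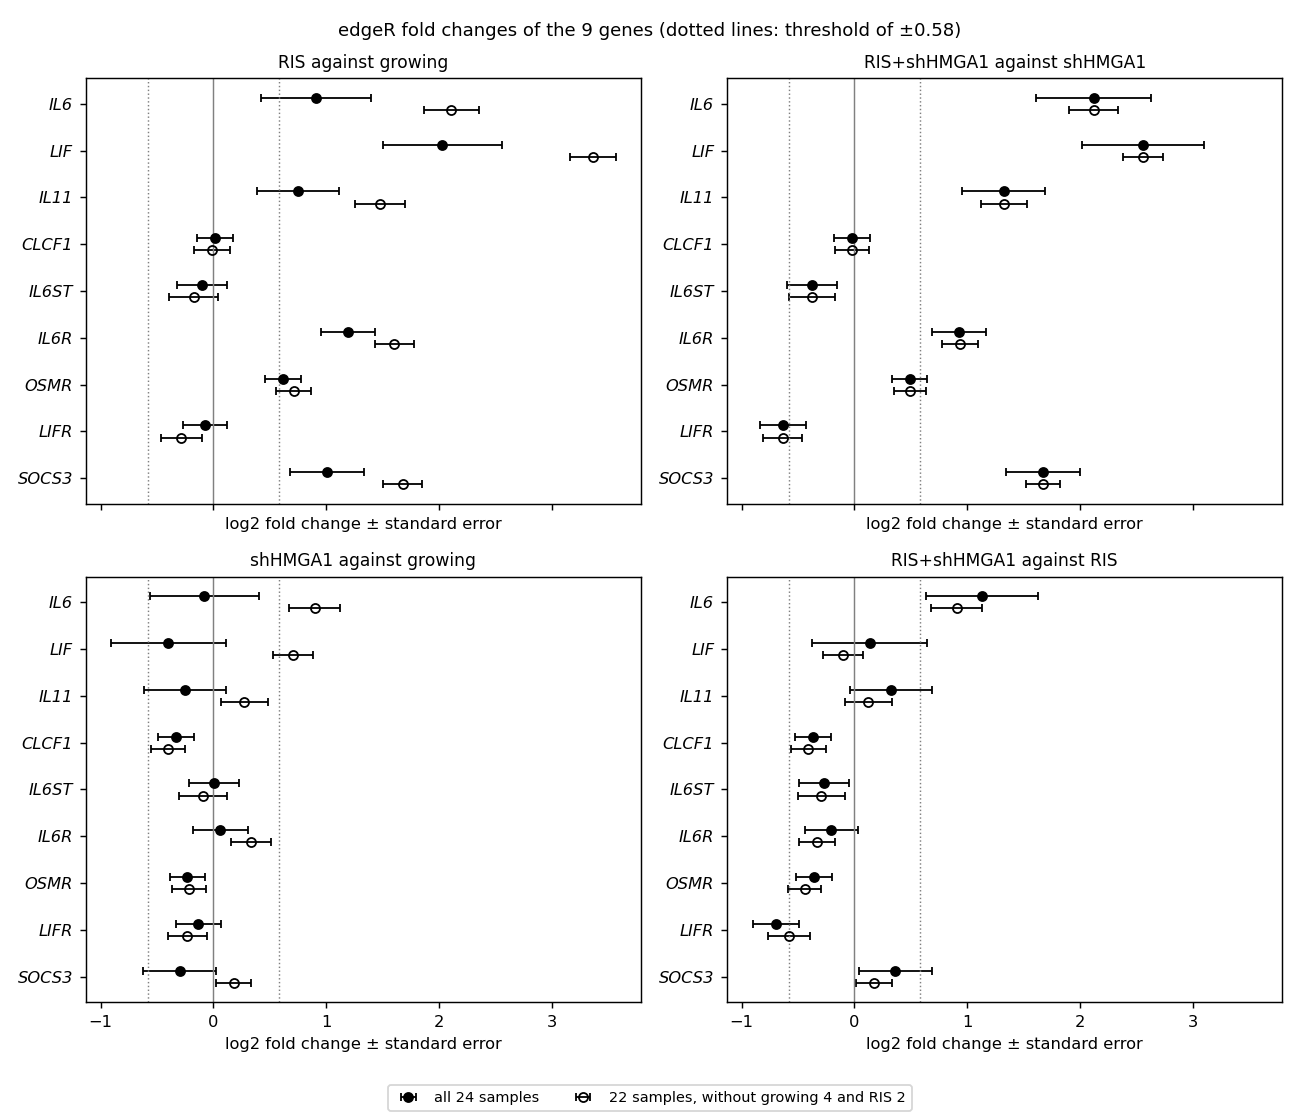
The log2 fold change with its standard error for the 9 genes in 4 comparisons, fitted to all 24 samples (filled) or to the 22 without growing replicate 4 and RIS replicate 2 (open), with the threshold of ±0.58 as dotted lines. In RIS against growing, *LIF* moved from 2.03 to 3.37 and *IL6* from 0.91 to 2.11, while in RIS+shHMGA1 against shHMGA1 the values stayed in place and the errors narrowed.

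The study also asked how lowering *HMGA1* alters RIS cells. RIS and RIS+shHMGA1 cells had the same 4OHT treatment and differed in the hairpin. Of the 9 genes, *IL6* was the one whose samples did not overlap: its 6 RIS+shHMGA1 samples lay above all 6 RIS samples, a pattern that 13.2% of all genes tested showed in either direction. The log2 fold change was 1.13 (standard error 0.49, adjusted p = 0.072 by edgeR), or 2.19-fold with a 95% interval of 1.07 to 4.47, and did not pass. Without growing replicate 4 and RIS replicate 2 it was 0.91 (standard error 0.22, adjusted p = 0.0044 by edgeR), 1.87-fold with a 95% interval of 1.35 to 2.60, and passed.

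In all samples 0 of the 9 genes passed in RIS+shHMGA1 against RIS, where 2.55% of all genes did. By edgeR, 4 of the 9 (*IL6*, *LIFR*, *CLCF1* and *OSMR*) and 6647 of all 13356 genes tested were at an unadjusted p under 0.05. DESeq2 called 1 (*LIFR*), where it called 12.2% of all genes. Without both samples 1 of the 9 passed (*IL6*) and 12.5% of all genes did. *LIFR* had a log2 fold change of −0.70 (standard error 0.21, adjusted p = 0.020 by edgeR), or −0.58 (standard error 0.19, adjusted p = 0.018 by edgeR) without both. *CLCF1* had 0.77 times the RIS level (95% interval 0.61 to 0.97, adjusted p = 0.069 by edgeR), or 0.75 times (95% interval 0.60 to 0.95, adjusted p = 0.041 by edgeR) without both samples, and did not pass. For *LIF*, RIS+shHMGA1 was 1.1 times the RIS level (95% interval 0.53 to 2.29), or 0.93 times (95% interval 0.72 to 1.2) without both samples, and for *IL11* 1.25 times (95% interval 0.74 to 2.11), or 1.09 times (95% interval 0.80 to 1.48). For *SOCS3* it was 1.29 times (95% interval 0.81 to 2.05), or 1.13 times (95% interval 0.90 to 1.42).

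In growing cells the hairpin gave no call among the 9 genes (0 by edgeR with 1, *CLCF1*, at an unadjusted p under 0.05, and 0 by DESeq2), where 0.27% of all genes passed. At that unadjusted p by edgeR were 1759 of all 13356 genes tested. The direction for *IL6* and *LIF* depended on growing replicate 4. The log2 fold change of *IL6* was −0.08 (standard error 0.49) with it and 0.90 (standard error 0.23, adjusted p = 0.012 by edgeR) without both samples. For *LIF* it was −0.40 (standard error 0.51) with it and 0.71 (standard error 0.18, adjusted p = 0.014 by edgeR) without both, and then every shHMGA1 sample lay above every growing sample, where 6.87% of all genes had groups that did not overlap in either direction. These remained short of the threshold, with 0 of the 9 genes called and 2.59% of all genes.

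The interaction term asks whether 4OHT acted differently with and without the hairpin. It called 0 of the 9 genes and 0.0% of all genes by edgeR, and 0 of the 9 by DESeq2. At an unadjusted p under 0.05 by edgeR were 0 of the 9 and 1371 of all 13356 genes tested. Without both samples it called 0 of the 9 genes and 0.00745% of all genes. Then 2 of the 9 (*LIF* and *IL6R*) and 512 of all 13416 genes tested were at an unadjusted p under 0.05 by edgeR. For *IL6* it was 1.21 (standard error 0.69, adjusted p = 0.43 by edgeR) in all samples and 0.01 (standard error 0.31, 95% interval of the ratio of folds 0.64 to 1.59) without both. For *LIF* it was 0.53 (standard error 0.72) in all samples and −0.81 (standard error 0.25, adjusted p = 0.70 by edgeR) without both.

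Against growing cells, RIS+shHMGA1 samples had 5 of the 9 genes past the thresholds, where 45.9% of all genes passed. The genes *IL6* (log2 fold change 2.04), *LIF* (2.16), *IL6R* (0.99) and *SOCS3* (1.37) were higher, and *LIFR* (−0.77) was lower. *IL11*, at 1.07 (standard error 0.37, adjusted p = 0.013 by edgeR), did not pass, but did with DESeq2 (adjusted p = 0.0060). Without both samples 6 passed, *IL11* among them, where 56.9% of all genes passed. This comparison shares the growing samples with RIS against growing, so that the values of both move together with growing replicate 4.

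Levels of different genes were compared per kilobase of the canonical transcript in GENCODE (GRCh37), since a longer transcript gives more reads. On this scale *IL6* was the highest of the 9 genes in each of the 24 samples, with median levels of 466 CPM per kilobase in growing and 3613 in RIS+shHMGA1 samples. In growing samples *IL11* (median 87.6 CPM per kilobase), *IL6ST* (68.6) and *OSMR* (56.6) followed, and their samples overlapped, so that their order is not resolved. *SOCS3* (20.04) and *LIF* (13.4) came next by their medians and overlapped too, then *CLCF1* (7.17). The growing samples of *SOCS3* also overlapped with those of *OSMR*, and those of *LIF* with those of *CLCF1*. Every *CLCF1* sample lay above every *LIFR* sample (median 0.90) and *IL6R* sample (median 0.41).

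In RIS+shHMGA1 samples the order at the top was *IL6*, then *IL11* (median 250 CPM per kilobase), then *LIF* (118), and the samples of these 3 did not overlap with those of the next gene down. *SOCS3* (67.5), *OSMR* (67.4) and *IL6ST* (51.5) overlapped with each other. *LIF* thus stood under *IL6ST* and *OSMR* per kilobase in growing cells by its median and above both in RIS+shHMGA1 cells. At the bottom, *IL6R* (0.88) lay above *LIFR* (0.57) in each of the 6 RIS+shHMGA1 samples, without overlap, whereas *LIFR* was above *IL6R* in 5 of the 6 growing and 6 of the 6 shHMGA1 samples.

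**Figure D3:**
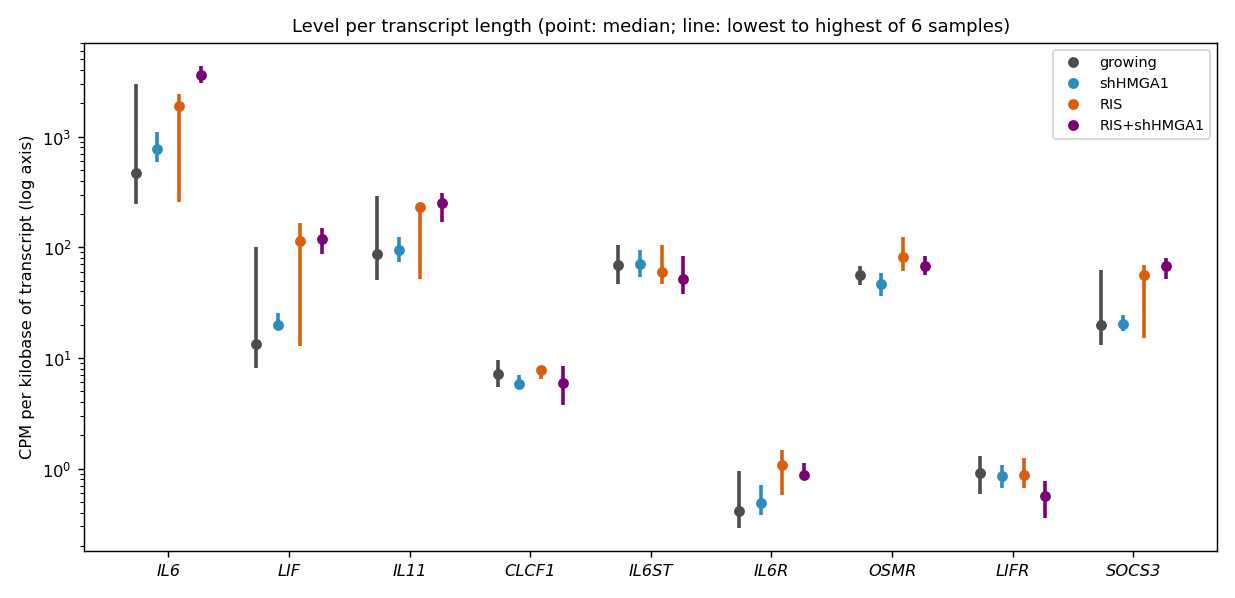
Level of the 9 genes in CPM per kilobase of the canonical transcript (log axis) in the 4 groups, with the median as a point and the range of the 6 samples as a line. *IL6* was highest in all groups, with medians of 466, 780, 1883 and 3613 in growing, shHMGA1, RIS and RIS+shHMGA1, and *IL6R* and *LIFR* were lowest, with medians of at most 1.08.

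The other genes of the pathway were taken from a list of 45 assembled by role, of which 34 passed the filter on low counts. Of the 11 others, the ligand genes *OSM*, *CNTF*, *IL27*, *EBI3* and *IL31*, the CLCF1 receptor gene *CNTFR*, the phosphatase gene *PTPN6* and the acute-phase genes *SERPINA3*, *FGG*, *LBP* and *HP* had at most 17 reads in any sample. In RIS+shHMGA1 against shHMGA1, 15 of the 34 passed, 6 higher and 9 lower, with a median log2 fold change of −0.20. The list moved in both directions, with a share called near the 39.1% of all genes.

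The kinases, STATs and adaptors had 0 of 10 higher and 4 lower (*STAT5A*, *GAB1*, *TYK2* and *STAT5B*). Of the 11 tested STAT3 targets 5 were higher (*SAA2*, *VEGFA*, *MYC*, *CEBPD* and *MCL1*) and 2 lower (*PIM1* and *IRF1*). Of 6 inhibitors *PTPN2* was higher and *SOCS2* lower. Of 3 other receptors *IL11RA* was lower, and of the 2 shedding proteases, which cut cytokine receptors from the cell surface, *ADAM10* was lower. The ligand gene *CTF1* did not pass.

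The largest of these changes was in *SOCS2*, a suppressor of cytokine signalling, which had 63.8, 70.1 and 100 CPM (lowest, median and highest) in shHMGA1 and 12.2, 14.3 and 19.5 CPM in RIS+shHMGA1 samples (log2 fold change −2.34, standard error 0.35, adjusted p = 0.00019 by edgeR). It went the other way from *SOCS3*. *IL11RA*, the receptor for IL11, fell from 9.18, 10.8 and 12.9 CPM to 1.76, 2.39 and 3.77 CPM (log2 fold change −2.14, standard error 0.36, adjusted p = 0.00023 by edgeR), while its ligand gene *IL11* rose. In samples with empty vector *IL11RA* had a median of 11.0 CPM in growing and 2.46 CPM in RIS, and the log2 fold change without both samples that stood apart was −2.11 (standard error 0.20, adjusted p = 3.1e-09 by edgeR).

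*SAA2*, an acute-phase serum amyloid gene, went from a median of 7.43 CPM in shHMGA1 to 23.4 CPM in RIS+shHMGA1 samples (log2 fold change 1.97, standard error 0.42, adjusted p = 0.00077 by edgeR). It is nearly identical to *SAA1*, so the split of reads between them is uncertain. *VEGFA*, the vascular endothelial growth factor, went from a median of 67.7 to 250 CPM (log2 fold change 1.85, standard error 0.35, adjusted p = 0.00032 by edgeR). *MYC*, a transcription factor of cell growth, went from a median of 20.4 to 48.5 CPM (log2 fold change 1.23, standard error 0.26, adjusted p = 0.00072 by edgeR). In all 3 genes the samples of both groups did not overlap.

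In RIS against growing, 0 of the 34 genes passed in all samples, where 0.0% of all genes did. By edgeR, 15 of the 34 and 4407 of all 13356 genes tested were at an unadjusted p under 0.05. DESeq2 called 4 of the 37 list genes that it tested, where it called 5.72% of all genes. Without both samples 17 of the 34 passed, 7 higher and 10 lower, where 39.7% of all genes did. In RIS+shHMGA1 against growing 18 passed, 5 higher and 13 lower, where 45.9% of all genes did. Without both samples 20 passed there, 6 higher and 14 lower, where 56.9% of all genes did. The hairpin in growing cells gave 0 calls, where 0.27% of all genes passed. Of the 34, 5 were at an unadjusted p under 0.05 by edgeR, as were 1759 of all 13356 genes tested, and DESeq2 called 0 of the list. Without both samples it gave 0 calls, where 2.59% of all genes passed. Then 10 of the 34 and 5221 of all 13416 genes tested were at an unadjusted p under 0.05 by edgeR. The interaction gave 0 calls by edgeR, where 0.0% of all genes passed, and 0 by DESeq2. By edgeR its unadjusted p was under 0.05 for 2 of the 34 and 1371 of all 13356 genes tested. Without both samples it gave 0 calls, where 0.00745% of all genes passed.

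In RIS+shHMGA1 against RIS 2 of the 34 passed, both lower, where 2.55% of all genes passed and 13.2% had groups that did not overlap. Without growing replicate 4 and RIS replicate 2 the same 2 passed, where 12.5% of all genes did. *STAT3*, the main transcription factor downstream of gp130, had 77.1, 90.9 and 131 CPM in RIS and 50.03, 59.5 and 65.9 CPM in RIS+shHMGA1 samples, without overlap (log2 fold change −0.72, standard error 0.16, adjusted p = 0.0067 by edgeR). *PIAS3*, which codes for an inhibitor of STAT3, had 57.7, 64.9 and 81.4 CPM in RIS and 39.4, 42.7 and 46.0 CPM in RIS+shHMGA1 samples, also without overlap (log2 fold change −0.66, standard error 0.11, adjusted p = 0.0019 by edgeR). Without both samples that stood apart, the log2 fold changes were −0.62 for *STAT3* (adjusted p = 0.0013 by edgeR) and −0.60 for *PIAS3* (adjusted p = 0.00047 by edgeR). The *STAT3* call was lost in 7 of the fits that left out 1 sample each, namely RIS replicate 2, 5 or 6 or RIS+shHMGA1 replicate 1, 2, 3 or 4 (adjusted p = 0.014 to 0.023 by edgeR). The *PIAS3* call held in all 24. In growing cells the hairpin gave −0.38 for *STAT3* (adjusted p = 0.28 by edgeR) and −0.48 for *PIAS3* (adjusted p = 0.040 by edgeR), and neither passed. Without both samples that stood apart these were −0.49 (adjusted p = 0.011 by edgeR) and −0.55 (adjusted p = 0.00086 by edgeR), again without a call. The interaction called neither gene.

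**Figure D4:**
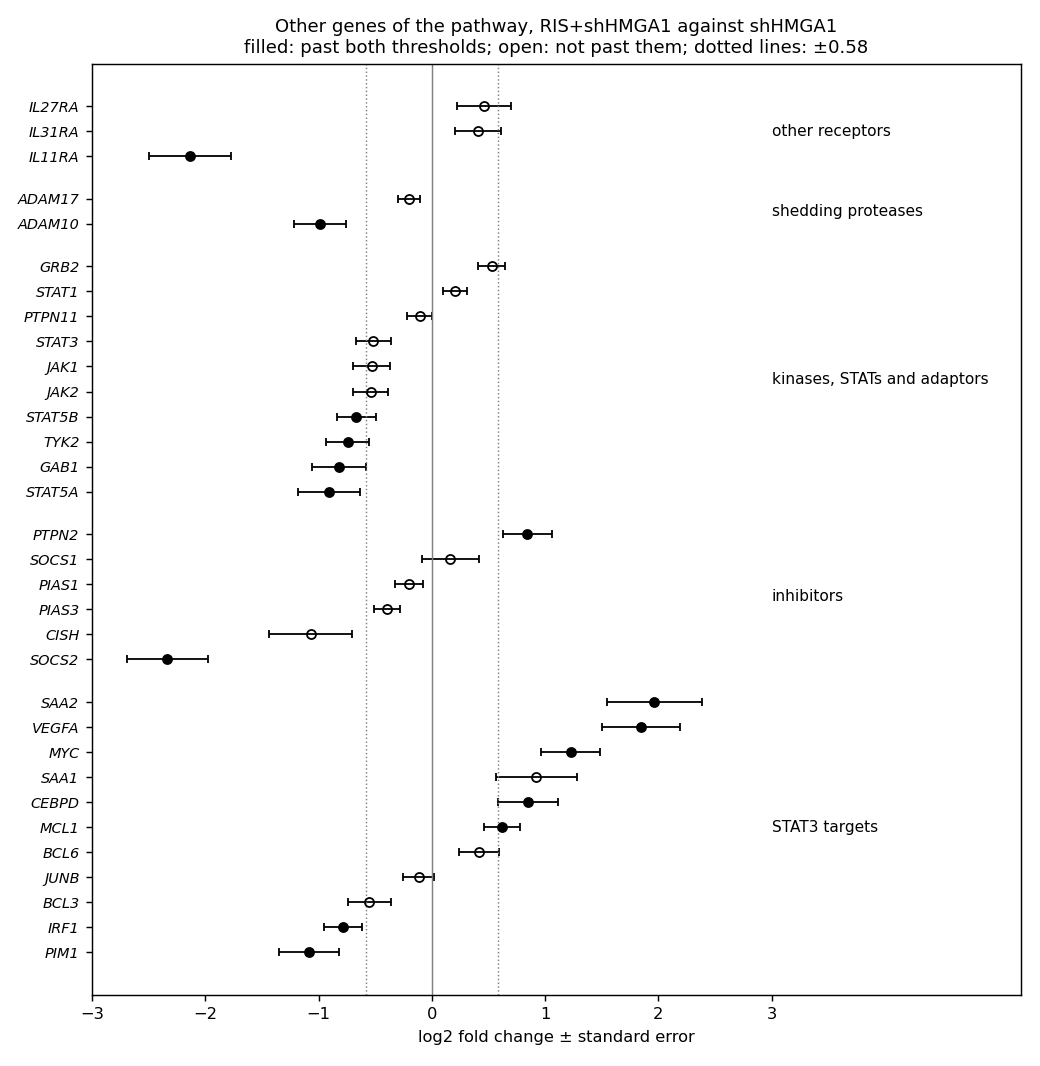
The log2 fold change with its standard error of 32 of the 34 other pathway genes (the ligands are not drawn) in RIS+shHMGA1 against shHMGA1, grouped by role, with the 15 past both thresholds filled. *SOCS2* (−2.34) and *IL11RA* (−2.14) were lowest, and *SAA2* (1.97) and *VEGFA* (1.85) highest. No kinase, STAT or adaptor gene passed on the higher side, where *GRB2* (0.53) was short of the fold threshold alone.

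The genes whose level followed that of *IL6* most closely over the 24 samples, by Pearson's r of log2 CPM, were *IL6-AS1* (r = 0.998), *CXCL8* (0.989), *RIPK2* (0.981), *TMEM156* (0.974) and *BPGM* (0.973). For *LIF* they were *PHLDA1* (0.986), *IRAK2* (0.985), *VEGFA* (0.984), *NRG1* (0.981) and *CSF3* (0.979). For *IL11* they were *CSF2* (0.960), *IL6-AS1* (0.957), *GK* (0.954), *CLDN14* (0.954) and *DCSTAMP* (0.952). The samples fall into a cluster that holds most of those with 4OHT and a cluster that holds most of those without it, with growing replicate 4 and RIS replicate 2 each on the opposite side from its label, and these values describe mainly the difference between the clusters.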

How the data were processed

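The authors mapped stranded mRNA-seq reads to hg19 with STAR 2.5.0b, trimmed adapters (cutadapt 1.10.0) and used Rsubread for counting. The deposited values are raw counts per Entrez gene identifier. The gene annotation and strand setting of the counting are not given in the sources used here. Symbols came from a RefSeq table, which held 23696 of the 25702 identifiers.

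Counts were filtered (filterByExpr), normalised (TMM) and fitted with edgeR 4.0.16 (R 4.3.3) as group means of all 24 samples, using the thresholds of the study's methods. CPM used TMM library sizes, and log2 CPM a prior count of 2. The scripts were tested on simulated data. Intervals of folds used the standard error and residual degrees of freedom. Alternatives were RLE factors, DESeq2 1.42.0, no low-count filter, the replicate number as a block, each sample left out, and growing replicate 4 and RIS replicate 2 left out, the latter also with the block (added after seeing the data).

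The members, lists and these exclusions were chosen with earlier results of these data known. All 9 members were named. Of the other pathway genes, those named with values were the 5 with the largest absolute fold change among those called in RIS+shHMGA1 against shHMGA1 and those called in a contrast of the hairpin. A gene of the list is not reported here by name. Those too low to test were named, and so were the 5 genes most correlated with *IL6*, *LIF* and *IL11*. The other called genes of a role were added after their values were seen. So were the fold changes of *GRB2*, *JAK1*, *JAK2* and *STAT3* in RIS+shHMGA1 against shHMGA1. P-values measure the spread between the 6 biological replicates per the labels; no pair of samples was a duplicate.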

Additional observations from a re-analysis of the deposited data

Results flagged for a closer look

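For each of the 9 genes and *HMGA1*, the sample farthest out in each group of 6 was compared with the rest by Dixon's ratio, the gap to the nearest sample over the range of the group. Of the 40 groups tested 5 exceeded the 95% critical value, where about 2 would by chance. RIS replicate 2 was the low sample of its group for *LIF* (0.8275), *IL11* (0.7844), *IL6* (0.7538) and *SOCS3* (0.7325). Growing replicate 4 was the high sample of its group for *LIF* (0.6945). The cause was not tested.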

How the results depend on the processing

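The count of the 9 genes past the thresholds in RIS against growing was 0 and became 6 without growing replicate 4 and RIS replicate 2, 6 with the replicate block added to that, 3 with DESeq2 and 0 to 6 when single samples were left out. For the other pathway genes it was 0 and became 17, 17, 4 and 0 to 10. In RIS+shHMGA1 against RIS the count of the 9 genes was 0 and became 1 with the replicate block (*LIFR*), 1 without both samples (*IL6*), 2 with both changes, 1 with DESeq2 and 0 to 2 when single samples were left out, with 2 without growing replicate 4. For the other pathway genes it was 2, and 1 to 3 when single samples were left out. In shHMGA1 against growing the count of the 9 genes was 0 and became 1 (*LIF*, adjusted p = 0.0035 by edgeR) without both samples and with the block. Under that setting 3.61% of all genes passed. The counts in RIS+shHMGA1 against shHMGA1 (4 to 6 and 12 to 16 when single samples were left out) and against growing (5 to 6 and 13 to 20) stayed within 1.5 times. Over all genes, RIS against growing went from 0 calls to 5331 without both samples and 826 with DESeq2, and RIS+shHMGA1 against RIS from 341 to 1677 and 1567. The latter comparison had 1637 calls over all genes with the replicate block and 2555 without growing replicate 4.

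Folds changed sign in comparisons where the gene was not called with the samples as labelled. Without both samples and, second, with the block as well, the log2 fold changes were −0.013 and −0.057 for *CLCF1* in RIS against growing. In shHMGA1 against growing they were 0.90 and 0.89 for *IL6*, 0.71 and 0.75 for *LIF*, 0.27 and 0.25 for *IL11*, −0.091 and −0.024 for *IL6ST*, and 0.18 and 0.20 for *SOCS3*. In RIS+shHMGA1 against RIS they were −0.10 and −0.052 for *LIF*. For the interaction they were −0.81 and −0.80 for *LIF* and −0.15 and −0.076 for *IL11*. The interaction of *SOCS3* was −0.0067 without both samples, and that of *CLCF1* 0.0061 with the block as well. With RLE factors *CLCF1* was 0.0031 in RIS+shHMGA1 against shHMGA1. With the replicate block on all samples *IL6* was 0.32 and *LIF* 0.090 in shHMGA1 against growing.

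When single samples were left out, signs changed in RIS against growing for *CLCF1* (−0.052 to 0.10), *IL6ST* (−0.28 to 0.037) and *LIFR* (−0.19 to 0.042), and in RIS+shHMGA1 against shHMGA1 for *CLCF1* (−0.16 to 0.076). In shHMGA1 against growing they changed for *IL6* (−0.27 to 0.90), *LIF* (−0.59 to 0.71), *IL11* (−0.40 to 0.28), *IL6ST* (−0.090 to 0.14), *IL6R* (−0.071 to 0.34) and *SOCS3* (−0.43 to 0.18). They also changed for *LIF* in RIS+shHMGA1 against RIS (−0.10 to 0.28) and for the interactions of *LIF* (−0.57 to 0.72) and *CLCF1* (−0.18 to 0.060). Beyond the values above, the cause was not tested.

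The replicate numbers are not stated to mark a shared batch. Replicates 5 and 6 had the lowest *HMGA1* in both hairpin groups. On the first principal component they lay at 16.8 and 22.2 in RIS and at 52.5 and 58.2 in RIS+shHMGA1 samples. The other samples lay between 56 and 62.1 in RIS (RIS replicate 2 aside) and between 78.5 and 84.1 in RIS+shHMGA1. In growing and shHMGA1 samples these replicates did not lie apart there. Whether they share a batch was not tested. Of the 36 same-numbered pairs 24 deviated together from their group means with a correlation over 0.1 (mean 0.175, range −0.594 to 0.828). Those group means include growing replicate 4 and RIS replicate 2, which shift them. The lowest value was for growing and RIS replicates 1 and the highest for growing and RIS replicates 4. The check therefore cannot show whether the numbers pair the samples, and the main fit did not use them. Pairs of samples from different groups with different numbers had a mean correlation of −0.0496. The block gave *LIFR* in RIS+shHMGA1 against shHMGA1 (−0.67, adjusted p = 0.0036 by edgeR) and *IL11* in RIS+shHMGA1 against growing (1.26, adjusted p = 0.0032 by edgeR) as further calls. Among the 9 genes *IL6R* rests on the fewest reads.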
